A study of Mus musculus with 12 samples.

Results

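The genes described here are 10 genes commonly used as markers of vascular endothelium, taken by symbol from a table of 47593 genes. Of these, 8 mark blood vessels (Pecam1, Cdh5, Kdr, Flt1, Tek, Tie1, Emcn and Vwf) and 2 mark lymphatic vessels (Lyve1 and Prox1), and all 10 had a row in the table. They were measured by poly(A) RNA sequencing of 12 tumors, labelled as mammary tumors, from 9 mice. Tumors 3 and 4 came from 1 mouse, tumors 10, 11 and 12 from another, and the other 7 mice gave 1 tumor each. The mice carried the MADM RG;GR alleles on a mixed background, had no treatment, and per the study's methods were females that also carried Brca1flox, p53KO and MMTV-Cre. MADM (mosaic analysis with double markers) makes sparse labelled mutant cells among cells that keep a working allele, and MMTV-Cre was chosen to act in mammary epithelium, so vessels were not its intended target. Every tumor was labelled with the same condition, normal gland was not analysed here, and the age of the mice was not given in the sources used here. The comparisons are therefore between genes within a tumor and between mice.

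Blood and lymphatic vessels are lined by endothelial cells, which adhere to each other through VE-cadherin and PECAM1. Their growth and stability are set mainly by a pair of families of receptor tyrosine kinases, the VEGF receptors and the TIE receptors, and lymphatic identity is set by the transcription factor PROX1. Tumors draw on vessels of the host, so endothelial transcripts in a piece of tumor come mostly from its stroma. In bulk tissue, fewer endothelial cells and less endothelial RNA per cell cannot be told apart.

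The 4 receptor genes that are compared pairwise below, Kdr with Flt1 and Tek with Tie1, are shown first by the DNA just before their transcription start. RefSeq promoter entries (GRCm38.p6) were present for 6 of the 10 genes, namely Kdr, Flt1, Tek, Tie1, Emcn and Prox1. Each line gives the 150 bases before the RefSeq start, 5′ to 3′ on the strand of the gene, with GGAA or its reverse complement TTCC in capitals, which is the core that ETS factors, the ERG and ETS1 family active in endothelium, recognise. The windows are chr5:75978456-75978605 and chr5:147726012-147726161, both on the minus strand, chr4:94739139-94739288 on the plus strand and chr4:118489850-118489999 on the minus strand.
Kdr: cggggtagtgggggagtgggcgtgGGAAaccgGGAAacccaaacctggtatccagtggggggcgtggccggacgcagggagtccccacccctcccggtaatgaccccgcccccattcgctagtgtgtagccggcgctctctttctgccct
Flt1: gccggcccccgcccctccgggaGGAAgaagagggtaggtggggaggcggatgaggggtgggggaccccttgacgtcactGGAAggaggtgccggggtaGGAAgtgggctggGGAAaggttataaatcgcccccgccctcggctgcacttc
Tek: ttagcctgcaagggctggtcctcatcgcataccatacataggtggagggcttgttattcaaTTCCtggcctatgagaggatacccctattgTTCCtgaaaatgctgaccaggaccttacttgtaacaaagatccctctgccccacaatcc
Tie1: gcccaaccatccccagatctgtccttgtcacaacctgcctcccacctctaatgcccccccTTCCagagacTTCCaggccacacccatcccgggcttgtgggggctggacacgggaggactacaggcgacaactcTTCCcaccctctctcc
GGAA was found 2 times in the Kdr window, 4 times in Flt1, 2 times in Tek and 3 times in Tie1, on either strand. It is a common word, present in 80.8% of all 32851 promoter windows of this length. The longer form CAGGAA, which overlaps GGAA and was present in 16.6% of all windows, was found 2 times in Tek and was not in the windows of Kdr, Flt1 or Tie1. The form CCGGAA (9.23% of all windows) and the GATA-like word AGATAA (5.65%) were in none of these 4 windows. The TATA-like word TATAAA, present in 7.57% of all windows, occurred 1 time in Flt1 and in none of the other 3. These are matches of letters only. By the GENCODE vM21 gene models the Tie1 gene starts upstream of the RefSeq start, at 118490061, so the Tie1 window lies inside that model.

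Tumor 2 stood apart from the other tumors in genes other than the endothelial ones. The epithelial marker Epcam was listed at 0 there and the summed level of 8 epithelial genes was 1.38 TPM (a transcript level corrected for transcript length and scaled to the same total in each tumor). The B-cell gene Cd79a reached 609 TPM in tumor 2 and at most 41.6 TPM elsewhere. Tumor 8 had Epcam at 2.03 TPM, so 2 of the 12 tumors had little or none of this epithelial marker. The 8 epithelial genes summed to 247 TPM in tumor 8, the second lowest sum. Keratins made up much of it, with Krt8 at 128 TPM and Krt14 at 87.9 TPM. For tumor 2 in particular the transcripts go against its label as a mammary tumor. Results that rest on tumor 2 are given with and without it. Means and SDs are over the 9 mice, with tumors of 1 mouse averaged first.

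All of the blood endothelial genes were detected in every tumor, and their level was highest in tumor 8 for 5 of the 8. The share of all genes that were highest in tumor 8 was not computed. The sum of the 8 genes ran from 57.7 TPM in tumor 2 to 212 TPM in tumor 8 (median 98.9). The next lowest and next highest tumors stood at 64.0 and 132 TPM. Tumor 8 was thus well clear of the rest at the top. Pecam1 made up most of the sum in tumor 2, and without Pecam1 the other 7 genes summed to 14.6 TPM there and to at least 43.6 TPM in the other tumors. On the log2(TPM + 1) scale the mean levels fell in the order Pecam1, Cdh5, Emcn, Flt1, Tie1, Vwf, Kdr, Lyve1, Tek and Prox1. No gene differed from the next in this order by more than the SD of that difference over the 9 mice. The closest pair, Vwf and Kdr, was separated by 0.0093 ± 0.99 on this scale (SD, n = 9) and changed places when the 12 tumors were averaged without regard to mouse. Leaving out tumor 2 kept the order, and 4 of the 9 steps then exceeded their SD. These were Pecam1 over Cdh5 (0.59 ± 0.16, SD, n = 8), Emcn over Flt1 (0.80 ± 0.80, the mean just above the SD), Kdr over Lyve1 (1.11 ± 0.81) and Tek over Prox1 (1.13 ± 0.73).

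**Figure D1:**
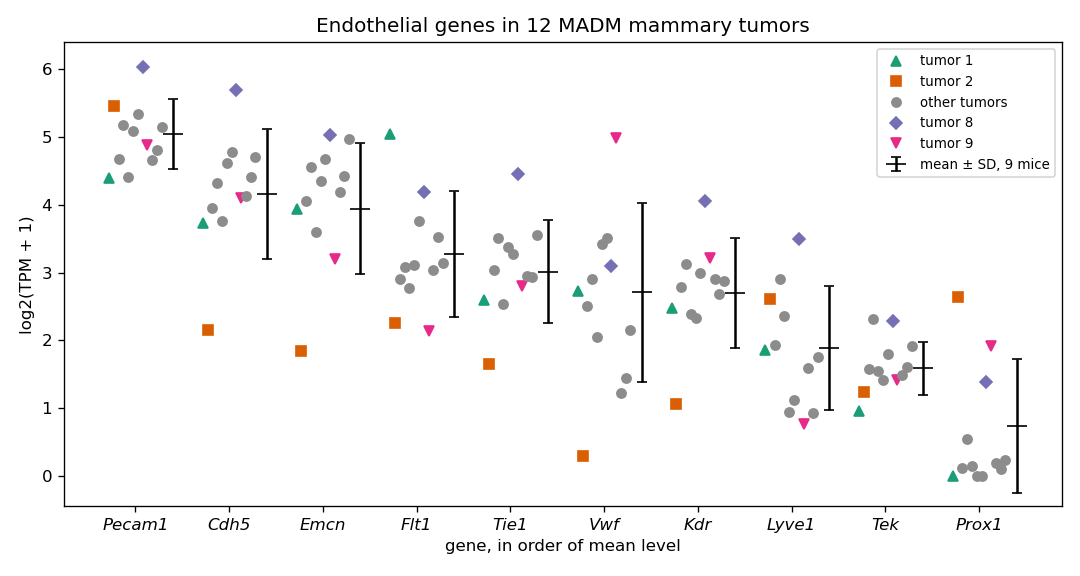
Level of the 10 endothelial genes, log2(TPM + 1), in each of 12 tumors, with the mean ± SD over 9 mice beside them. Tumor 8 (diamonds) is highest for 6 of the 10 genes, tumor 2 (squares) is lowest for 5 of the blood endothelial genes, and tumors 1 and 9 stand out for Flt1 and Vwf.

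The adhesion molecules had the highest mean levels. Pecam1 (ENSMUSG00000020717) lies on the minus strand of chromosome 11 from 106654217 to 106750628 (GRCm38). Pecam1 encodes CD31, which joins endothelial cells and is also carried by platelets and many leukocytes. It ranged from 20.1 TPM in tumor 1 through a median of 30.7 to 64.7 TPM in tumor 8, with a mean of 34.2 ± 13.8 TPM (SD, n = 9), and tumor 2 was the second highest at 43.1 TPM. Cdh5 (ENSMUSG00000031871) lies on the plus strand of chromosome 8 from 104101625 to 104144511. Cdh5 encodes VE-cadherin, the adhesion molecule of endothelial junctions. It ranged from 3.46 TPM in tumor 2 through a median of 17.7 to 50.7 TPM in tumor 8, with a mean of 20.3 ± 13.3 TPM (SD, n = 9). The 2 genes thus had the same highest tumor, while tumor 2 was near the top for Pecam1 and at the bottom for Cdh5.

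Pecam1 exceeded Cdh5 in 9 of 9 mice. The difference in log2(TPM + 1) was 0.89 ± 0.92 (SD, n = 9), with p = 0.0039 in a two-sided exact sign-flip permutation test, the smallest p that 9 mice allow, and an adjusted p of 0.0078 over the 4 contrasts tested. Tumor 2 decided the size of the difference. It stood at 3.31, the other mice lay between 0.35 and 0.79, and without tumor 2 the difference was 0.59 ± 0.16 (exact permutation p = 0.0078, n = 8). As a ratio of TPM, Pecam1 to Cdh5 was 12.5 in tumor 2 and 1.28 to 1.85 in the other 11 tumors. The pan-leukocyte gene Ptprc was at 91.7 TPM in tumor 2, second only to tumor 8 with 113 TPM, and Icam2, an adhesion molecule of endothelium and lymphocytes singled out after its values were seen, was at 64.4 TPM in tumor 2 and at most 17.6 TPM elsewhere. The sum of the 8 leukocyte genes was 1217 TPM in tumor 2 and 122 to 501 TPM in the others, and the part of leukocytes in the Pecam1 level was not tested.

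Emcn (ENSMUSG00000054690) lies on the plus strand of chromosome 3 from 137341067 to 137432185. It encodes endomucin, a sialomucin of capillaries and veins. Emcn ranged from 2.57 TPM in tumor 2 through a median of 18.4 to 31.8 TPM in tumor 8, with a mean of 17.1 ± 9.01 TPM (SD, n = 9). The ratio of Emcn to Cdh5 lay between 0.506 in tumor 9 and 1.21 in tumor 12; in tumor 2 it was 0.743, within the range of the other tumors. Vwf (ENSMUSG00000001930) lies on the plus strand of chromosome 6 from 125546774 to 125686679. It encodes von Willebrand factor, the clotting protein stored by endothelial cells and platelets. Vwf had the largest SD of the blood endothelial genes on the log2(TPM + 1) scale, 1.32 over 9 mice, although not in TPM. It ranged from 0.223 TPM in tumor 2 through a median of 5.17 to 30.7 TPM in tumor 9, with 10.4 TPM in the next highest tumor, and its mean was 8.34 ± 9.04 TPM (SD, n = 9). The ratio of Vwf to Cdh5 was 1.90 in tumor 9 and at most 0.458 elsewhere. The 3 tumors of 1 mouse, 10 to 12, had 1.33, 1.71 and 3.45 TPM of Vwf, and there its ratio to Cdh5 was 0.0807, 0.0840 and 0.138. The lowest ratio was 0.0644, in tumor 2. Among platelet genes, Pf4 was at 7.25 TPM in tumor 9 against a highest value of 147 TPM in tumor 8, and the sum of the 8 platelet and megakaryocyte genes was lowest in tumor 9, at 9.05 TPM. Only 3 of these 8 platelet genes had a mean TPM of at least 1, and the part of platelets in the Vwf level was not tested.

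The VEGF receptors were compared as a pair. Kdr (ENSMUSG00000062960) lies on the minus strand of chromosome 5 from 75932827 to 75978458. Kdr encodes VEGFR2, the main signalling receptor for VEGF-A on blood endothelium. It ranged from 1.08 TPM in tumor 2 through a median of 6.11 to 15.6 TPM in tumor 8, with a mean of 6.41 ± 4.05 TPM (SD, n = 9). Flt1 (ENSMUSG00000029648) lies on the minus strand of chromosome 5 from 147561604 to 147726011. Flt1 encodes VEGFR1, which binds VEGF-A, VEGF-B and PlGF, and which is also made as a soluble decoy that these gene-level values do not separate. It ranged from 3.41 TPM in tumor 9 through a median of 7.55 to 32.1 TPM in tumor 1, with a mean of 10.9 ± 9.04 TPM (SD, n = 9). Tumor 1 was far above the next tumor, tumor 8 with 17.2 TPM, although no other gene of the set was at its highest there.

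Flt1 was above Kdr in 8 of 9 mice, but the difference did not pass the test. In log2(TPM + 1), Kdr minus Flt1 was -0.58 ± 0.98 (SD, n = 9), with an exact permutation p of 0.098 and an adjusted p of 0.098. Tumor 9 was the exception, with Kdr higher by 1.07, and tumor 1 lay at the other end with -2.56. When each mouse was left out in turn, the difference was -0.78 without tumor 9 and passed (exact permutation p = 0.0078, n = 8), and it was -0.33 without tumor 1, so the call depended on single tumors. The ratio of Flt1 to Kdr ran from 0.413 in tumor 9 to 6.99 in tumor 1, with 3.47 in tumor 2 as the second highest.

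The TIE receptors bind or regulate angiopoietin signalling. Tek (ENSMUSG00000006386) lies on the plus strand of chromosome 4 from 94739289 to 94874976. Tek encodes TIE2, the angiopoietin receptor. It ranged from 0.938 TPM in tumor 1 through a median of 1.95 to 3.98 TPM in tumor 4, with a mean of 2.12 ± 0.893 TPM (SD, n = 9), and tumor 8 was next at 3.87 TPM. Tie1 (ENSMUSG00000033191) lies on the minus strand of chromosome 4 from 118471191 to 118490061. Tie1 encodes the partner receptor that modulates TIE2. It ranged from 2.14 TPM in tumor 2 through a median of 6.96 to 20.9 TPM in tumor 8, with a mean of 8.20 ± 5.32 TPM (SD, n = 9). Tie1 was above Tek in 9 of 9 mice, and Tek minus Tie1 in log2(TPM + 1) was -1.43 ± 0.52 (SD, n = 9; exact permutation p = 0.0039, adjusted p = 0.0078). In TPM, Tek stood at 0.176 to 0.399 of the Tie1 level in 11 tumors and at 0.633 in tumor 2. Leaving out tumor 2 gave -1.56 ± 0.37 (exact permutation p = 0.0078, n = 8).

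**Figure D2:**
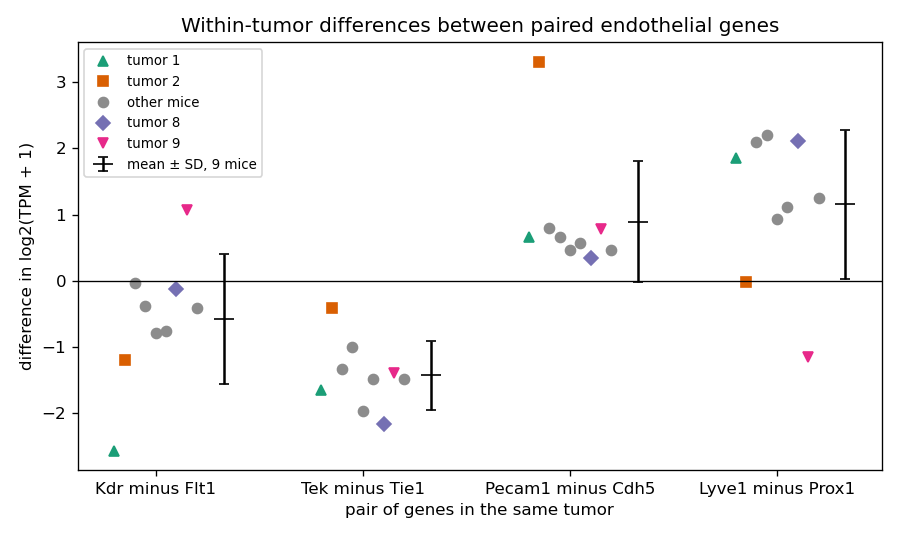
Difference in log2(TPM + 1) between paired endothelial genes for each of 9 mice, with the mean ± SD. All 9 mice lie below 0 for Tek minus Tie1 and above 0 for Pecam1 minus Cdh5, where tumor 2 lies at 3.31, and tumor 9 lies on the other side of 0 from the mean for Kdr minus Flt1 and Lyve1 minus Prox1.

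The lymphatic genes stood near the bottom of the order of levels. Lyve1 (ENSMUSG00000030787) lies on the minus strand of chromosome 7 from 110850607 to 110863239. It encodes a hyaluronan receptor of lymphatic endothelium that is also carried by some tissue macrophages. Lyve1 ranged from 0.699 TPM in tumor 9 through a median of 2.49 to 10.3 TPM in tumor 8, with 6.45 TPM in tumor 4 and 5.12 TPM in tumor 2, and its mean was 3.48 ± 3.06 TPM (SD, n = 9). Prox1 (ENSMUSG00000010175) lies on the minus strand of chromosome 1 from 190118035 to 190170714. It encodes the transcription factor that sets lymphatic fate. Prox1 was listed at 0 in tumors 1, 6 and 7, was under 1 TPM in 9 of 12 tumors, and reached 1.62 TPM in tumor 8, 2.78 TPM in tumor 9 and 5.20 TPM in tumor 2. Of these 3 tumors, Lyve1 was at its highest in tumor 8 and at its lowest in tumor 9.

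In log2(TPM + 1), Lyve1 minus Prox1 was 1.15 ± 1.13 (SD, n = 9), positive in 7 of 9 mice, with an exact permutation p of 0.031 and an adjusted p of 0.042. With a pseudocount of 0.1 in place of 1 the difference was 2.62 (exact permutation p = 0.016, n = 9), so its size depended on how values near 0 were treated. The difference was -1.15 in tumor 9 and -0.018 in tumor 2, and 2.21 at the other end in tumor 5. The unadjusted exact permutation p rose to 0.0625 when the mouse of tumor 1, of tumors 3 and 4, of tumor 5, of tumor 8 or of tumors 10 to 12 was left out, with differences of 1.07, 1.04, 1.02, 1.03 and 1.14. Without tumor 6 or tumor 7 it was 0.047. No adjusted p was computed with a mouse left out.

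Of the 9 other lymphatic genes, 7 were highest in tumor 8, while Stab2 was highest in tumor 2 and Itga9 in tumor 12. This count has no share of all genes beside it, so it is not shown to be particular to lymphatic genes. Ccl21a, the chemokine of lymphatic vessels, was at 184 TPM in tumor 8 and 113 TPM in the next tumor, was listed at 0 in 2 tumors, and was at 19.1 TPM in tumor 2 and 0.185 TPM in tumor 9. Pdpn (podoplanin), which fibroblasts also express, was at 207 TPM in tumor 8, 0.931 TPM in tumor 2 and 7.35 TPM in tumor 9. Flt4, which encodes the VEGF-C receptor VEGFR3, was at 13.5 TPM in tumor 8 and at its lowest, 1.06 TPM, in tumor 2. Tumor 2, with the most Prox1, was thus the lowest for Flt4 and Pdpn, but it was the highest for Stab2 (0.612 TPM) and the second highest for Mmrn1 (3.42 TPM), both known in lymphatic endothelium and named after their values were seen. Of the 10 macrophage genes, 7 were also highest in tumor 8, among them Mrc1 and Timd4 at 85.4 and 5.62 TPM, while Folr2 was highest in tumor 4, Cd163 in tumor 10 and F13a1 in tumor 2, and the part of macrophages in the Lyve1 level was not tested.

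**Figure D3:**
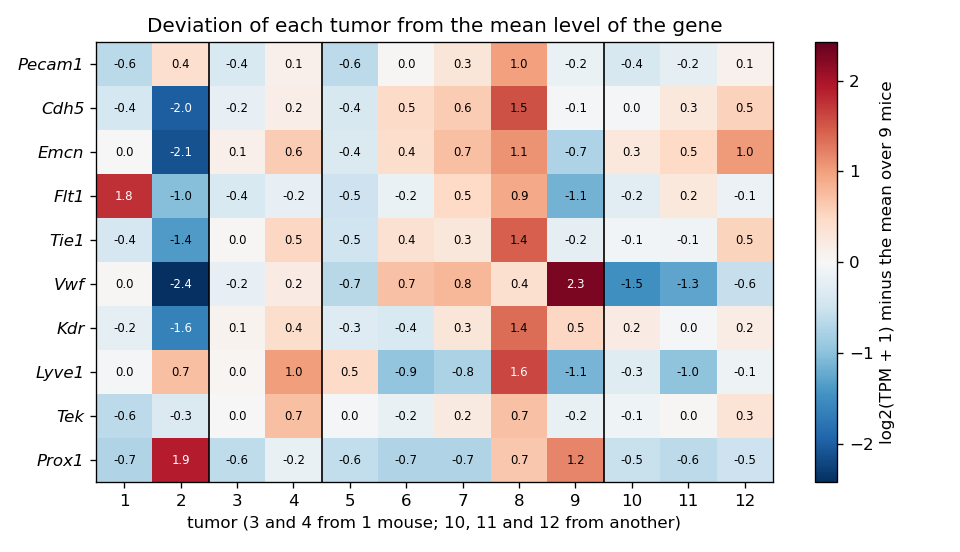
Deviation of log2(TPM + 1) in each tumor from the mean of the gene over 9 mice, with genes in order of mean level and lines between mice that gave several tumors and the rest. Tumor 8 is above the mean in all 10 genes, tumor 2 is below it for 7 of the 8 blood endothelial genes and above it for Pecam1, Lyve1 and Prox1, and tumor 4 is above tumor 3 in all 10.

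Tumors of the same mouse differed less than tumors of different mice. The SD within the 2 mice that gave several tumors was below the SD between mice for 10 of 10 genes, as it was for 92.1% of the 16802 genes whose TPM averaged at least 1. The median within-mouse SD was 0.32 log2 units for the endothelial genes and 0.25 for all genes, and the median SD between mice was 0.92 and 0.57. The within-mouse SD had only 3 degrees of freedom. Without tumor 2 the SD between mice fell for Cdh5 (0.96 to 0.64), Emcn (0.97 to 0.60) and Kdr (0.81 to 0.56), and for Tie1, Vwf and Prox1. It changed little for Pecam1 (0.52 to 0.53), Flt1 (0.93 to 0.90), Tek (0.40 in both) and Lyve1 (0.91 to 0.93). For all genes it was not computed without tumor 2. Cdh5 was at 14.5 and 19.0 TPM in tumors 3 and 4, and at 16.5, 20.3 and 25.1 TPM in tumors 10, 11 and 12. Tumor 4 exceeded tumor 3 in 10 of 10 endothelial genes, against 44.0% of all genes. From tumor 3 to tumor 4 the sums of the fibroblast genes (1140 and 2936 TPM), macrophage genes (972 and 1661 TPM), adipocyte genes (130.4 and 353 TPM) and erythrocyte genes (233 and 634 TPM) were also higher. The epithelial sum was lower (6680 and 5120 TPM), and the part of these cell types in the endothelial levels was not tested. Sums of the other vascular lists described below went both ways. Those of pan-endothelial genes (206 and 376 TPM) and lymphatic genes (78.0 and 237 TPM) were higher in tumor 4. Those of tip cell genes (220 and 198 TPM) and VEGF and angiopoietin genes (297 and 253 TPM) were lower. That of arterial, venous and capillary genes was nearly equal (200 and 203 TPM). The largest within-mouse SD was that of Lyve1, at 0.53 log2 units, with a range of 0.97 between tumors 3 and 4 and of 0.84 among tumors 10 to 12.

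Cdh5 was then used as the reference, because VE-cadherin is commonly taken as restricted to endothelium, which was not tested here. Each gene's level was regressed on the Cdh5 level of the same mouse. Of the 16801 genes tested, 61 rose with Cdh5 (0.363%) and 3 fell (0.0179%) in limma with Benjamini-Hochberg adjustment. Of the 9 other endothelial genes, 2 rose and 0 fell. Tie1 rose by 0.77 log2 units per log2 unit of Cdh5 (SE 0.13, limma adjusted p = 0.045), and Emcn by 0.93 (SE 0.16, limma adjusted p = 0.048). Kdr had a slope of 0.76 (SE 0.16, limma adjusted p = 0.070) and did not pass, but it did with a pseudocount of 0.1 (0.88, limma adjusted p = 0.045) and without tumor 9 (0.76, limma adjusted p = 0.040). The slopes of Vwf, Tek, Flt1, Pecam1, Lyve1 and Prox1 were 0.83, 0.29, 0.43, 0.19, -0.017 and -0.44, with limma adjusted p from 0.25 to 0.98.

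The calls lay close to the threshold. Without tumor 2, 0 of 16694 genes rose in limma, 1430 had an unadjusted p under 0.05 in either direction, and the limma adjusted p of Tie1 and Emcn became 0.29 and 0.39 with slopes of 0.91 and 0.74. Both genes also lost the call when the mouse of tumors 3 and 4, 5, 6, 7 or 10 to 12 was left out, with slopes that stayed between 0.76 and 0.79 for Tie1 and between 0.92 and 0.93 for Emcn and limma adjusted p of at most 0.11. Scaling by the upper quartile (limma adjusted p = 0.068 and 0.069) and no filter on low values (0.11 for both) ended both calls too. Rescaling without mitochondrial genes ended that of Emcn (limma adjusted p = 0.053). Over all alternatives the limma adjusted p ran from 0.027 to 1.00 for Tie1 and from 0.026 to 1.00 for Emcn.

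Over the 9 mice the correlation with Cdh5 was strongest for Tie1, with a Pearson r of 0.97 (exact permutation p = 0.00036) and a Spearman rho of 0.95 (exact permutation p = 0.00035). Tie1 kept an r of 0.96 without tumor 2 and 0.88 without tumors 2 and 8, the 2 farthest from the median of Cdh5 (exact permutation p = 0.00069 and 0.014). Emcn had r = 0.92 and rho = 0.92 (exact permutation p = 0.00058 and 0.0013), with an r of 0.79 without tumor 2 and 0.70 without tumors 2 and 8 (exact permutation p = 0.017 and 0.086). Kdr had r = 0.90 and rho = 0.60 (exact permutation p = 0.0059 and 0.097), and 0.76 and 0.25 in the same order, and its relation therefore rested on tumors 2 and 8. Tek had r = 0.70 and rho = 0.78 (exact permutation p = 0.038 and 0.017), and 0.76 and 0.49, the last with an exact permutation p of 0.26 at n = 7. The slope of Tek was 0.40 without tumors 2 and 8 against 0.29 with all mice. These p-values are not adjusted, and 9 genes were examined in this way.

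The correlation of Pecam1 with Cdh5 depended on tumor 2. Its r was 0.35 with all mice and its rho 0.48 (exact permutation p = 0.35 and 0.19), whereas r was 0.98 without tumor 2 (exact permutation p = 0.00022, n = 8) and 0.95 without tumors 2 and 8. Vwf had r = 0.60 and rho = 0.50 (exact permutation p = 0.082 and 0.18), and 0.14 without tumor 2. Flt1 had r = 0.44 and rho = 0.45 (exact permutation p = 0.22 and 0.23), and 0.21 without tumor 2. Lyve1 and Prox1 had r = -0.018 and -0.43, with rho of -0.12 and -0.25 (exact permutation p of 0.97 and 0.27 for r, and of 0.78 and 0.51 for rho). Without tumor 2 they had r = 0.36 and 0.31, and without tumors 2 and 8 r = -0.62 and -0.17 (exact permutation p = 0.14 and 0.73, n = 7).

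**Figure D4:**
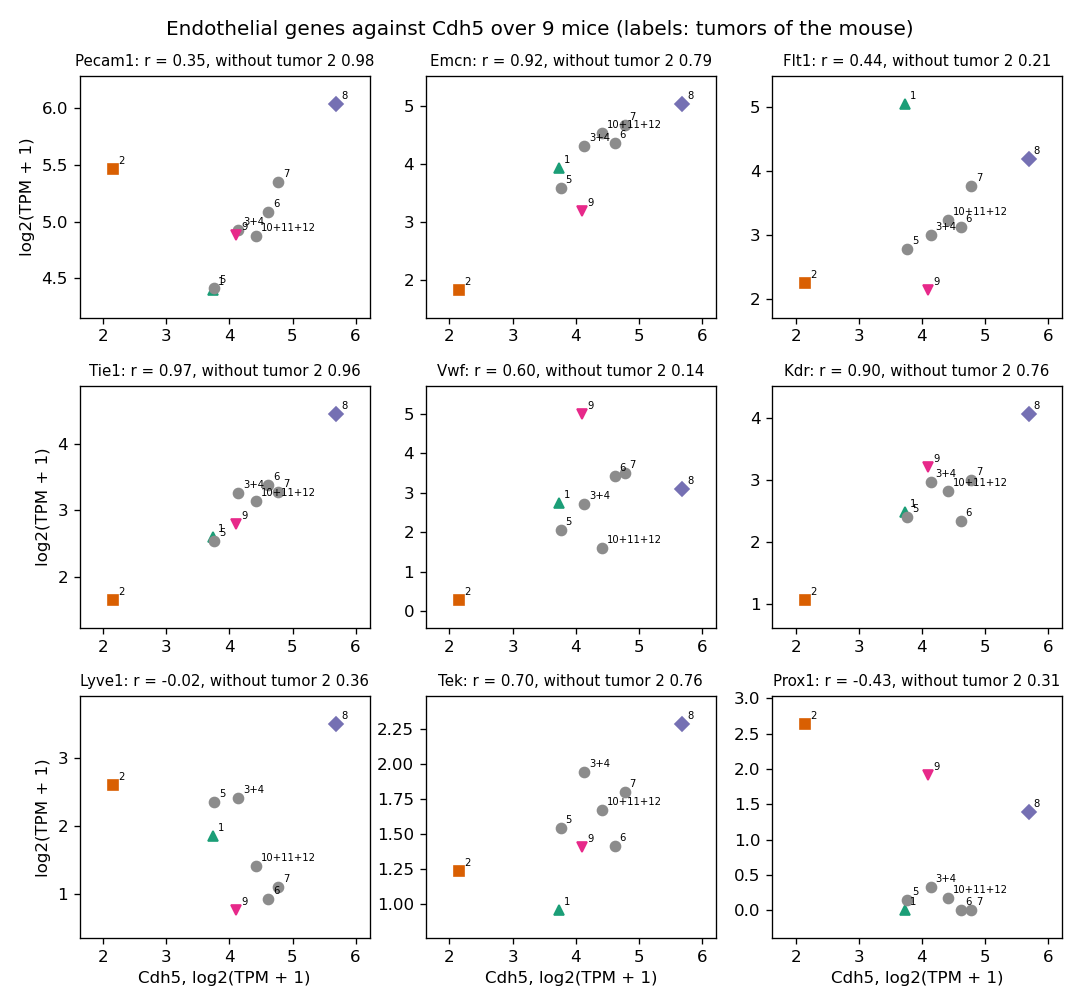
Level of 9 endothelial genes against Cdh5, both in log2(TPM + 1), for 9 mice, with the tumors of each mouse as labels. Tie1, Emcn and Kdr are lowest in tumor 2 and highest in tumor 8, Pecam1 is high in both, and Flt1 and Vwf are set apart by tumors 1 and 9.

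Genes of the same vascular biology outside the set were summarised by their correlation with Cdh5 over the 9 mice, whose median over all genes tested was 0.085, with 9.41% of genes above 0.7 (4.78% without tumor 2) and 55.5% with a positive slope. In limma, 3361 of the 16801 genes tested had an unadjusted p under 0.05, and by exact permutation none passed the adjustment. Of 17 pan-endothelial genes tested, 16 had a positive slope, 10 had r above 0.7 and the median r was 0.76, while 0 passed limma and 11 had an unadjusted p under 0.05. Their levels ran from 0.665 TPM for Tal1, a transcription factor of blood and endothelium with a mean too low to be tested, to 99.7 TPM for Ecscr, an endothelial surface protein. Without tumor 2 the median r was 0.83 and 12 genes were above 0.7.

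Of 13 genes of arterial, venous and capillary endothelium, 0 passed limma, 2 had an unadjusted p under 0.05 and the median r was 0.24, or 0.15 without tumor 2, with levels from 1.09 TPM for Selp (P-selectin) to 71.4 TPM for Ephb4, a receptor of venous endothelium that epithelium also expresses. Of 8 genes of tip cells and sprouting, 1 passed limma, Nid2 (nidogen-2, a basement membrane protein), with a slope of 0.88 (SE 0.15, limma adjusted p = 0.045), and the median r was 0.57, or 0.33 without tumor 2. Their levels ran from 5.31 TPM for Aplnr to 70.2 TPM for Cxcr4, a chemokine receptor that leukocytes share. Of 6 lymphatic genes tested, 1 passed limma, Pdpn, with a slope of 1.73 (SE 0.27, limma adjusted p = 0.044). The median r of the lymphatic genes was 0.52, or 0.78 without tumor 2, and the 9 listed ran from 0.108 TPM for Stab2 to 60.3 TPM for Nrp2.

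Of 6 ligands and coreceptors of the VEGF and angiopoietin pathways, 0 passed limma, 2 had an unadjusted p under 0.05, and the median r was 0.49, or 0.69 without tumor 2. Vegfa, the main ligand of both VEGF receptors, had the highest level of these at 170 ± 104 TPM (SD, n = 9), and Angpt4 the lowest at 1.10 ± 1.22 TPM (SD, n = 9). Vegfd was not analysed here. Vegfc, the ligand of VEGFR3, was at 51.2 TPM in tumor 8 and at most 16.4 TPM elsewhere.

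Genes of other cell types were set beside Cdh5 in the same way, and their part in its level was not tested. The 10 macrophage genes summed to 535 TPM in tumor 2 and 2568 TPM in tumor 8, the same lowest and highest tumors as for Cdh5. Their median r was 0.72, or 0.59 without tumor 2, 5 of 10 had r above 0.7, and 0 passed limma while 6 had an unadjusted p under 0.05, with levels from 1.43 TPM for Timd4 to 591 TPM for C1qa. The 8 leukocyte genes had a median r of 0.50, or 0.47 without tumor 2, with levels from 2.85 TPM for Cd3e to 106 TPM for S100a8, and 1 passed, the myeloid integrin Itgam, with a slope of 1.41 (SE 0.20, limma adjusted p = 0.044). The 8 fibroblast genes, from 4.90 TPM for Fap to 236 TPM for Dcn, had a median r of 0.59, or 0.17 without tumor 2, and summed to 84.7 TPM in tumor 2 and 3133 TPM in tumor 8. The 10 genes of pericytes and vascular smooth muscle, the cells that wrap vessels, had a median r of 0.25, or -0.14 without tumor 2, with levels from 2.43 TPM for Cspg4 to 70.8 TPM for Acta2. Of the fibroblast genes and the pericyte and smooth muscle genes, 0 passed limma in either list and 3 in each had an unadjusted p under 0.05.

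The sign of the epithelial correlations depended on tumor 2. All 8, from 168 TPM for Cdh1 to 1297 TPM for Krt8, had a positive slope over 9 mice with a median r of 0.28, whereas without tumor 2 the median r was -0.83. Krt14 was apart from the other epithelial genes, with an r of -0.03 without tumor 2. The epithelial sum was 247 TPM in tumor 8, which had the most Cdh5, and 1.38 TPM in tumor 2, which had the least. In the other tumors it was at least 3017 TPM. The negative r may thus rest on tumor 8, and r without tumors 2 and 8 was not computed for this list. Of the 3 platelet genes tested, the median r was 0.30, or 0.61 without tumor 2, with Pf4 highest at 33.7 TPM. The 5 adipocyte genes tested had a median r of -0.070, or -0.42 without tumor 2, between 0.876 TPM for Lep, which was too low to be tested, and 67.6 TPM for Fabp4. The 4 erythrocyte genes tested had a median r of 0.11, or -0.21 without tumor 2, with Hba-a1, whose reads a near-identical copy can share, highest at 91.6 TPM. Of the platelet, adipocyte, erythrocyte and epithelial genes 0 passed limma, and 1 platelet, 0 adipocyte, 0 erythrocyte and 1 epithelial gene had an unadjusted p under 0.05.

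**Figure D5:**
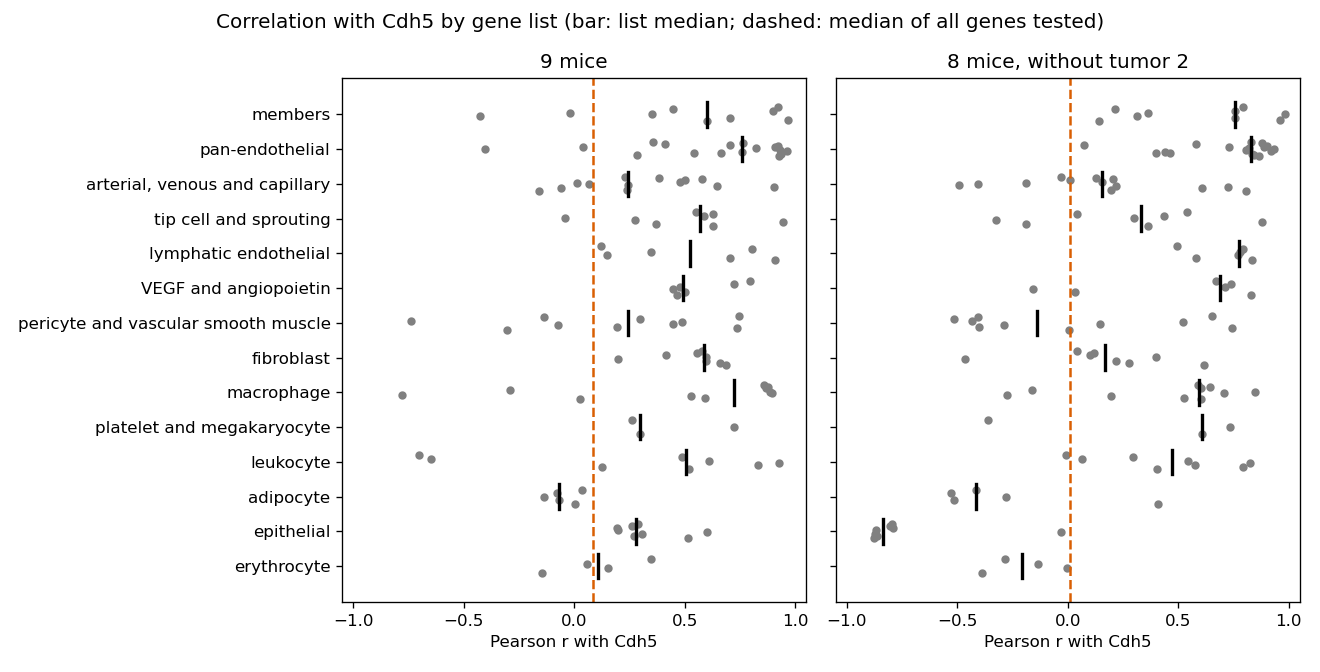
Pearson r with Cdh5 for each gene of 14 lists, the endothelial genes described here first, over 9 mice on the left and over 8 mice without tumor 2 on the right. Black bars are list medians and the dashed line is the median of all genes tested, and the epithelial genes move from a median of 0.28 to -0.83 when tumor 2 is left out.

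By likeness of pattern, the 10 genes outside the set with the highest Pearson r with Cdh5 over 9 mice were Vash1, Fam219a, Stra6l, Slc8a1, Tgfbi, 5830432E09Rik, Gpr84, Nos3, Ifnar1 and Ptprm, with r from 0.98 to 0.96. Vash1 (vasohibin-1), Nos3 (endothelial nitric oxide synthase) and Ptprm (a receptor phosphatase of cell junctions) are known in endothelium, and Gpr84 in myeloid cells. All 10 were highest in tumor 8. Within the set, Tie1 ranked 5 among all genes by r with Cdh5 over 9 mice, Emcn 56 and Kdr 135, while Pecam1 ranked 5378. These ranks depended on tumor 2. Without it the r of Pecam1 was 0.98, above that of each of the 10 genes (at most 0.97). Tie1 then had 0.96, Emcn 0.79 and Kdr 0.76. For Lyve1 the 5 most alike were Hist1h3d, Serp2, AA414768, Lrrc49 and Tspyl2, with r from 0.95 to 0.92. For Prox1 they were Cd28, H2-Eb2, Xlr4a, Ppp1r16b and Xkr5, with r from 0.99 to 0.98, all of them highest in tumor 2, and Cd28 is a costimulatory receptor of T cells. No lymphatic gene that was ranked was among the 5 most like either Lyve1 or Prox1. Reln, Stab2 and Foxc2 were not ranked, because their mean was under 1 TPM.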

How the data were processed

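Poly(A) RNA from a piece of each of 12 tumors was sequenced with a stranded kit. Per the labels and the study's methods, the authors aligned reads with HISAT2 to GRCm38 and assembled and quantified transcripts with StringTie 2.1.6, and they deposited TPM values per gene. The file holds no counts, so the depth of each library is unknown, and the number of mice sets the precision. TPM was used as log2(TPM + 1), and fold changes on this scale understate those of low genes. Tumors of 1 mouse were averaged, giving 9 mice. Paired genes were compared by a two-sided exact sign-flip permutation test with Benjamini-Hochberg adjustment over 4 contrasts. Slopes on Cdh5 were fitted with limma 3.58.1 (trend) in R 4.3.3 over 16801 genes with a mean TPM of at least 1, adjusted over all of them at a threshold of 0.05, and the script was tested on simulated data. Correlations used exact permutation. Sequencing batches were not given in the sources used here. The members and the 13 lists were chosen with earlier results of these data known. Named genes were all 10 members and, for each list, genes called with Cdh5 (up to 4), the highest and lowest mean TPM and those at 0 in every tumor. A few genes that this rule names are not reported here. The 10 genes most like Cdh5 and the 5 most like Lyve1 and Prox1 were also named. Gene positions are from GENCODE vM21 (GRCm38). Alternatives covered the pseudocount, filter, scaling, unit of replication, reference gene, permutation and each mouse left out.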

Additional observations from a re-analysis of the deposited data

Results flagged for a closer look

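Of 14 quantities examined over the 9 mice (the levels of the 10 genes and the 4 contrasts), 1 had a mouse that stood apart by Dixon's test, which by chance marks about 1 in 20 groups. Pecam1 minus Cdh5 was 3.31 in the mouse of tumor 2, and the nearest other mouse was at 0.79, a gap of 0.85 of the whole range. In this tumor Pecam1 was at 43.1 TPM and Cdh5 at 3.46 TPM, with Epcam listed at 0 and Cd79a at 609 TPM.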

How the results depend on the processing

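Passing a contrast here means an unadjusted p under 0.05. Tek minus Tie1 and Pecam1 minus Cdh5 kept their direction and passed under all 14 alternatives each. Both had the same sign in 9 of 9 mice, so with any mouse left out the exact permutation p could only be 0.0078. Scaling all genes of a tumor alike also hardly alters the order of 2 of them. These passes therefore add little. Kdr minus Flt1 passed only without tumor 9 (-0.78) and with each mouse left out ran from -0.78 to -0.33. Leaving out each mouse put Lyve1 minus Prox1 between 1.02 and 1.44, and without tumors 2 and 8, an alternative chosen after seeing the data, it was 1.18 and did not pass, while a pseudocount of 0.1 gave 2.62 and passed. The number of genes that rose or fell with Cdh5, 61 and 3, became 240 and 9 with a pseudocount of 0.1, 9 and 1 with each tumor as a unit and mouse as a random block, 1 and 0 with upper-quartile scaling, 0 and 0 without a filter on low values, 131 and 5 with a mean TPM of at least 5, 2 and 0 with Tie1 and 0 and 0 with Pecam1 as the reference, 0 and 0 by exact permutation, and 0 and 0 without tumors 2 and 8. With each mouse left out the numbers ran from 0 to 607 and from 0 to 239, the highest without tumor 8. Rescaling without mitochondrial genes gave 46 and 3. The cause of these changes was not tested. Counts at an unadjusted p under 0.05 were 3361 in the reported fit, 4890 without a filter, 1121 with Pecam1 as the reference, 2512 by exact permutation and 329 without tumors 2 and 8. The slope of Pecam1 turned to -0.070 without tumor 8 (range with each mouse left out -0.070 to 0.81) and that of Flt1 to -0.29 without tumors 2 and 8. The slope of Lyve1, -0.017, turned positive with mouse as a random block (0.086) and without tumor 2 (0.53), 5 (0.011), 6 (0.051), 7 (0.060) or 10 to 12 (0.0012). With each mouse left out it ran from -0.62 to 0.53, and it was -1.03 without tumors 2 and 8. Prox1 has no slope without tumor 2, without tumor 9 or without tumors 2 and 8, because its mean then falls under 1 TPM, and none with the filter of 5 TPM. No paired analysis was possible because every tumor belongs to 1 condition, which leaves no groups to pair by replicate number, and the pairing of genes within a tumor is part of the contrasts themselves. Without read counts, low levels such as those of Prox1 have no counting error attached.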

Other observations

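Tumors 1 and 9, each from a mouse of its own, were the highest or lowest of the 12 tumors for several vascular genes. The genes named here belong to the set or the lists above, and they were chosen after their values were seen. Tumor 1, with the most Flt1, also had the most Vegfa (392 TPM, next 263) and the most Pgf (178 TPM, next 142), which encode ligands of VEGFR1, whereas Vegfb, which encodes another, was highest in tumor 9 at 44.1 TPM. Tumor 1 also had the most Esm1 (30.6 TPM, next 26.4), a tip cell gene, and Efnb2 (28.9 TPM, next 24.7), which encodes the arterial ligand ephrin-B2. Its Epcam, at 1004 TPM, was the highest of the 12 tumors.

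Tumor 9, with the most Vwf, had 177 TPM of Gja4, which encodes the arterial connexin 37, against at most 6.15 TPM elsewhere. Other arterial genes were below their highest values there, with Gja5 at 1.43 TPM (highest 5.31), Efnb2 at 11.8 TPM (highest 28.9), Hey1 at 4.69 TPM (highest 23.4) and Sox17 at 1.56 TPM (highest 3.04). Dll4, the Notch ligand of arterial and tip cells, was at 42.3 TPM there and at most 10.5 TPM elsewhere, and Myh11, the smooth muscle myosin, was at 250 TPM and at most 3.44 TPM elsewhere. In the same tumor Flt1 was at its lowest and Emcn at its second lowest, at 8.19 TPM. Pan-endothelial genes differed among themselves in tumor 9, where Cldn5, a junction protein, was at 3.61 TPM (highest 40.8, in tumor 8), while Ecscr (195 TPM), Ptprb (3.72 TPM) and Rasip1 (11.0 TPM) were at their highest. Pgf was at its lowest, at 0.755 TPM. Acta2, another smooth muscle gene, was also at its lowest in tumor 9, at 22.2 TPM. The part of other cell types in these values was not tested.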
